A study of Mus musculus with 4 samples.

Results

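Small nucleolar RNAs (snoRNAs), small Cajal body RNAs and small nuclear RNAs (snRNAs) were examined in leukemia stem cells (LSCs) of a mouse acute myeloid leukemia (AML), in wild type and in B7-H4-null samples. The genes were chosen by name: every row of the deposited table whose Entrez gene ID has a symbol beginning with Snord, Snora, Scarna or Rnu and belongs to a noncoding gene. The rule found 138 of 27179 rows. By symbol they fell into 81 C/D box snoRNA genes (the U3 genes, named Rnu3, included), 38 H/ACA box snoRNA genes, 9 small Cajal body RNA genes and 10 genes of spliceosomal snRNAs and of the U7 RNA. All 4 samples were bone marrow cells of the C57BL/6 strain sorted for a yellow fluorescent protein, Mac-1 and c-Kit, 2 of them labelled wild type and 2 labelled B7-H4-null. The sources used here name no oncogene, no age and no agent, and they do not say how the null allele was made. Vtcn1 encodes B7-H4, a B7 family protein known to restrain T cells. The libraries are called the wild-type pair and the null pair where values are given.

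Most snoRNAs of vertebrates lie in introns of host genes and are trimmed out of the spliced intron. C/D box RNAs guide 2'-O-methylation and H/ACA box RNAs guide pseudouridylation, mostly of ribosomal RNA, while a few, among them U3, U8, U13, U14, U17 and U22, take part in cleavage or other maturation steps of the ribosomal precursor. Small Cajal body RNAs guide the same modifications on spliceosomal snRNAs, and the snRNAs themselves form the major spliceosome (U1, U2, U4, U5 and U6) or the minor one, which removes a rare kind of intron (U11 and U12 with their partners). The U7 RNA acts in forming the 3' end of histone mRNAs. Their mature forms carry no poly(A) tail, and the library protocol named in the labels selects RNA with one.

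The sequences below are those of RNAs described in detail further on, snRNAs first, then C/D box and H/ACA box RNAs. No Cajal body RNA is shown, since each was read only a few times. They are GENCODE transcript sequences on GRCm38, written on the transcript strand 5′ to 3′. Their ends can lie some bases away from those of the table's rows. Capitals mark exact letters that a search found: ATTTTT in the snRNAs, which resembles the site where the Sm ring binds, TGATGA within the first 20 bases (the C box) and CTGA within the last 20 bases (the D box) of C/D box RNAs, and ACA exactly 3 bases before the end of H/ACA box RNAs.
U11, gene Rnu11, chr4:132270080-132270213, minus strand: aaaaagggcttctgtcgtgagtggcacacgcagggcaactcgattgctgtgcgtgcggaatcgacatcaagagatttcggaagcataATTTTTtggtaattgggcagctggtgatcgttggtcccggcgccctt
U12, gene Rnu12, chr15:83149644-83149794, plus strand: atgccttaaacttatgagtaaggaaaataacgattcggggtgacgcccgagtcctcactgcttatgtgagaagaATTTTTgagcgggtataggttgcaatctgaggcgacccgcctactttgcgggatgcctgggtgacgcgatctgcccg
U8, gene Snord118, chr11:69073427-69073561, plus strand: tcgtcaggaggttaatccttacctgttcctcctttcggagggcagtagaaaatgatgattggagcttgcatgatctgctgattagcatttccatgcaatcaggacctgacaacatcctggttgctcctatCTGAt
Snord42a, in an intron of Rpl23a, chr11:78181299-78181363, minus strand: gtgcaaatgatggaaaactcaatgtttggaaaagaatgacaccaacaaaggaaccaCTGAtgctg
Snord100, in Rps12, chr10:23785750-23785823, minus strand: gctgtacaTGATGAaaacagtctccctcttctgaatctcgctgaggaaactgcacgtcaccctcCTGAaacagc
U22, gene Snord22, in Snhg1, chr19:8725866-8725991, plus strand: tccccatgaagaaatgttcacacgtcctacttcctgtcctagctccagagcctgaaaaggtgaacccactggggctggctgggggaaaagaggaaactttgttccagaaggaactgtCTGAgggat
Snord14e, in Hspa8, chr9:40804748-40804837, plus strand: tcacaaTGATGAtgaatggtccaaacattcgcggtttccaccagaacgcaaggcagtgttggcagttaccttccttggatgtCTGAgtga
Snora75, in Ncl, chr1:86351169-86351301, minus strand: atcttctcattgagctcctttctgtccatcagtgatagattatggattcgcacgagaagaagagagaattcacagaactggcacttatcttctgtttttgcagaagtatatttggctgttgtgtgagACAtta
Snora61, in Snhg12, chr4:132310240-132310369, plus strand: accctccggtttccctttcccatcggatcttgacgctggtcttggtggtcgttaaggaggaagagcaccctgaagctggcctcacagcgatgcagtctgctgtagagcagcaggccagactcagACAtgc

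The C/D and ACA letters mostly followed the classes given by the symbols. Both boxes in their windows were found in 46 of 81 C/D box genes (56.8%), and the D box letters alone in 79. No H/ACA box gene held both. The ACA stood 3 bases before the end in 31 of 37 H/ACA box genes (83.8%) and in 0 of 81 C/D box genes. The Cajal body RNAs were mixed, with both C/D letters in 4 of 9 and the ACA in 2 of 9. ATTTTT was found in 5 of 10 spliceosomal and U7 genes. It was also found in 2 of 81 C/D box and 1 of 37 H/ACA box genes, and in 0 of 9 Cajal body genes. The 5 were Rnu11, Rnu12, Rnu2-10, Rnu5g and Rnu6, while the U1 genes and Rnu7 lacked it, so these letters alone do not mark an Sm site. Only exact letters on the transcript strand were searched, so a gene without them may hold a variant of the box. Snora19 was left out because its model in the annotation was not that of the snoRNA.

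Levels are given in RPKM, that is, reads per kilobase of gene scaled to the library total. The totals behind this scaling lay between 9419425 and 10814448 reads, and the reads behind each value could be worked back from them. Vtcn1 was read once in each B7-H4-null library and had 0 reads in the wild-type pair, too few to check the genotype labels, so the genotypes below are those of the labels. All 5 listed genes of the sorted cells were present in every library, and 4 of them did not overlap between genotypes, though none passed the test described below (smallest adjusted p = 0.256, limma). Mpo was higher in B7-H4-null, at 1194 and 979.8 against 2153 and 3388 RPKM. Itgb2 (213 and 213 against 123 and 146 RPKM), Itgam (114 and 86.9 against 82.9 and 59.9 RPKM) and Ptprc (58.6 and 67.9 against 52.5 and 48.3 RPKM) were lower, and Kit overlapped at 7.19 to 24.0 RPKM. The 3 T cell, 3 B cell and 4 erythroid markers together summed to at most 4.13 RPKM in any library. The 4 markers of stroma and endothelium summed to 18.9 RPKM in each wild-type library, against 38.1 and 32.6 RPKM in the null pair. Nearly all of this was Pecam1, while Col1a1 and Col1a2 overlapped between genotypes at 1.72 RPKM or less, and Cdh5 at 0.0232 RPKM or less. The 2 megakaryocyte markers summed to 1.92 and 4.21 RPKM in the wild-type pair, against 15.8 and 3.12 RPKM in the null pair. Nearly all of that was Itga2b, whose genotypes overlapped. Their part in the results below was not tested. In sorted but bulk samples, fewer cells of a type and less RNA per cell cannot be told apart.

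Reads from these genes were rare. Together they received 1921 and 1024 reads in wild type replicates 1 and 2 and 3328 and 2907 reads in B7-H4-null replicates 1 and 2, 9180 reads in all. The median gene had 23 reads over the 4 libraries, 47 genes had 10 reads or fewer, and 11 had none: Snord11, Snord64, Snord90, Snord116l1, Snord116l2, Snora19, Snora35, Snora36b, Scarna3b, Rnu1b1 and Rnu6. The 10 genes with the most reads held 36.1% of them. A single read in a gene of 70 bases was worth 1.32 to 1.52 RPKM, so a low RPKM value here can be 1 or 2 reads.

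Scaled to 1000000 reads of the library total (RPM), the reads of all 138 genes came to 189 and 103 RPM in wild type and to 353 and 269 RPM in B7-H4-null. Both B7-H4-null libraries stood above both wild-type libraries, with means of 146 ± 61.0 and 311 ± 59.8 RPM (SD, n = 2 per genotype), 2.13-fold higher. An exact permutation test of 2 against 2 libraries, two-sided, gave p = 0.333, the smallest value this design allows. The libraries of 1 genotype also differed, since wild type replicate 1 stood 1.84-fold above wild type replicate 2. Leaving out wild type replicate 1 gave a ratio of means of 3.02, and leaving out wild type replicate 2 gave 1.64.

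The ratio differed in size from class to class. C/D box genes summed to 105 and 55.9 RPM in wild type and to 203 and 155 RPM in B7-H4-null, 2.22-fold higher in means. H/ACA box genes summed to 81.2 and 44.5 against 139 and 93.7 RPM, 1.85-fold higher. In both snoRNA classes wild type replicate 2 was the lowest library and B7-H4-null replicate 1 the highest, without overlap between genotypes.

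The 9 Cajal body genes had 11 and 10 reads in wild type and 4 and 18 reads in B7-H4-null, and their genotypes overlapped, at 1.08 and 1.01 against 0.425 and 1.66 RPM. The 10 spliceosomal and U7 genes stood at 1.58 and 1.71 against 10.3 and 18.3 RPM, 8.70-fold higher in means. Most of that came from 1 gene, Rnu11. Without it the other 9 genes summed to 0.887 and 1.41 RPM in wild type and to 5.52 and 2.96 in B7-H4-null, 3.69-fold higher, again without overlap.

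**Figure D1:**
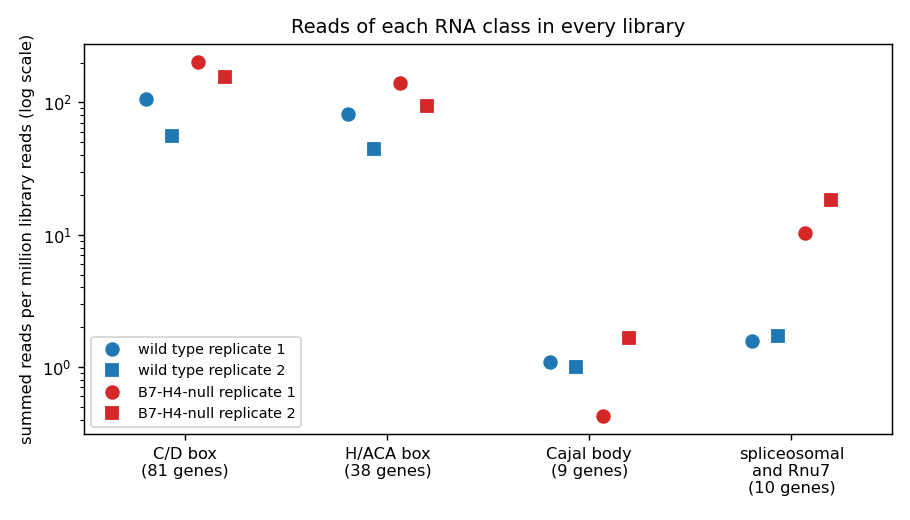
Summed RPM, reads per 1000000 library reads (log scale), of the 4 RNA classes, with 1 point per library, circles for replicate 1 and squares for replicate 2. Both B7-H4-null points lie above both wild-type points for C/D box, H/ACA box and spliceosomal and U7 genes, while the points of the Cajal body genes, with 4 to 18 reads per library, overlap.

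The test of single genes was limma's moderated test on log2(RPKM + 1), adjusted by Benjamini-Hochberg over all 12107 genes that reached 1 RPKM in at least 2 of the 4 libraries. This admitted 118 of the 138 genes, 74 C/D box, 32 H/ACA box, 5 Cajal body and 7 spliceosomal or U7 genes. Of the 20 others, 11 had no read and 9 had too few. Of the 118, 7 reached the minimum only in B7-H4-null, Rnu12 and Snord82 among them, and 1 only in wild type. The direction of these genes was set by the filter. None of the 118 passed an adjusted p of 0.05, beside 0.0991% of all tested genes (0.0413% higher and 0.0578% lower in B7-H4-null). The smallest values belonged to Snord13 (adjusted p = 0.0718), Rnu12 (0.0859), Snord82 (0.0871, from 0 and 0 against 2 and 2 reads), Snord42a (0.104) and Rnu11 (0.108). This count moved with single libraries: 17 genes passed when wild type replicate 1 was left out, 2 (Rnu12 and Snord13) when wild type replicate 2 was, and 0 without either B7-H4-null library.

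At an unadjusted p under 0.05, 47 of the 118 genes were higher in B7-H4-null (39.8%) and 5 lower (4.24%), where all tested genes gave 5.05% and 7.2%. In 64 genes both B7-H4-null values lay above both wild-type values (54.2%) and in 8 both lay below (6.78%), beside 16.0% and 28.0% of all tested genes. The remaining 46 overlapped. All counts over the 118 in this paragraph keep the 7 genes that met the filter only through B7-H4-null and the 1 only through wild type. Counted over all 138 genes with no filter, 65 were higher without overlap, 9 lower and 64 overlapping or without reads. The log2 difference (B7-H4-null minus wild type) was above 0 in 95 of 118 genes (80.5%), against 41.5% of all tested genes, and its median was 0.95 against −0.09. That median was 0.56 when wild type replicate 2 was left out and 1.31 when replicate 1 was. Libraries scaled by median ratio instead, which brought the median of all genes to 0.0063, gave the small RNAs a median of 1.03.

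The better-read genes were also taken alone. In the 56 genes with 10 reads or more in at least 2 libraries (34 C/D box, 21 H/ACA box and Rnu11) the median was 1.05. Of these, 39 were higher without overlap (69.6%, where 16.0% of the genes under the same filter were) and 0 were lower (28.3%). Of the 56, 6 met the filter only through B7-H4-null (Rnu11, Rnu3b1, Snord118, Snord68, Snord72 and Snora75) and none only through wild type, and Snora5c, which was lower, did not meet it. In the 50 that met it through both genotypes, 33 were higher without overlap and 0 lower. At an unadjusted p under 0.05, 31 were higher (55.4%, against 5.07%) and 0 lower. No gene of this set passed the adjusted threshold in a fit over the 12851 genes of that filter, of which 0.171% passed.

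By class, the median log2 difference was 1.01 for C/D box genes (38 of 74 higher without overlap, 4 lower), 0.88 for H/ACA box genes (19 of 32 higher, 3 lower), −0.04 for the 5 Cajal body genes (1 higher, 1 lower) and 0.99 for the 7 spliceosomal and U7 genes (6 higher, 0 lower). Of these, 5 C/D box and 2 spliceosomal genes met the filter only through B7-H4-null, and 1 Cajal body gene only through wild type. Beside these counts, 16.0% of all tested genes were higher without overlap and 28.0% lower. The medians of both snoRNA classes differed by less than each moved when wild type replicate 2 was left out, to 0.57 and 0.49. The difference between classes was not tested, since genes of 1 library are not replicates.

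**Figure D2:**
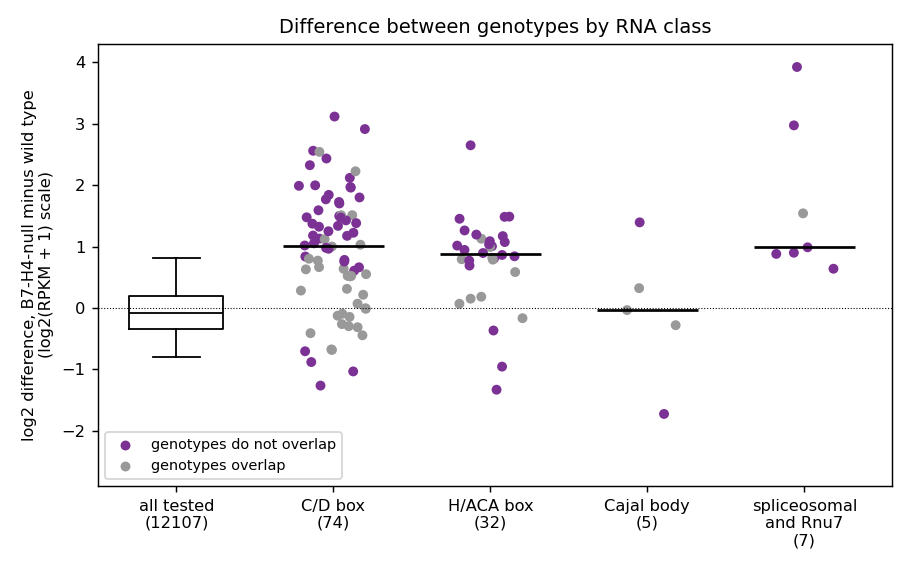
Log2 difference between genotypes (B7-H4-null minus wild type, on the log2(RPKM + 1) scale) for each tested gene of the 4 classes, with a line at the class median, beside a box of the 25th to 75th percentiles with whiskers to the 5th and 95th percentiles of all 12107 tested genes. Purple points are genes whose genotypes do not overlap, and the class medians are 1.01, 0.88, −0.04 and 0.99 against −0.09 for all genes.

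Other short genes measured in the same libraries had medians nearer to 0. The 145 tested microRNA genes had a median log2 difference of 0.04, with 26 higher (17.9%) and 27 lower (18.6%) without overlap. Of all tested genes, 16.0% were higher and 28.0% lower. The 165 tested genes with a span under 300 bases, small RNA genes left out, had a median of 0.03, with 29 higher (17.6%) and 27 lower (16.4%). This set appears to hold the microRNA genes as well, so it is not a separate comparison. The microRNA genes had median levels of 2.40 to 5.18 RPKM per library, against 4.11 to 13.1 RPKM for the 118 tested genes. No filter at 10 reads was applied to them, and the part of gene length was not tested. Of the list of other RNAs that lack a poly(A) tail, 5 were tested and none passed the adjusted threshold. All 5 lay above 0, but only 3 of them without wild type replicate 2 or without B7-H4-null replicate 1, and 1 of them, Rmrp, met the filter only through B7-H4-null, which set its direction. The median was 1.21 and lay between 0.40 and 1.72 when each library was left out. Rny1, a Y RNA, had 0 and 5.44 RPKM in the wild-type pair, against 19.1 and 21.7 RPKM in the null pair. Rmrp, the RNA of RNase MRP, had 0.717 and 0.732 RPKM against 4.25 and 2.02 RPKM. Both stood higher in both B7-H4-null libraries. The genotypes overlapped for Rn7sk, the 7SK RNA, at 8.61 and 2.12 RPKM in the wild-type pair, against 19.8 and 6.68 RPKM in the null pair, and for Rpph1, the RNA of RNase P, at 16.1 and 1.24 against 8.82 and 4.55 RPKM. The share of RNA without a tail that entered each library was not measured, and its part in the differences was not tested.

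Among the snRNAs, Rnu11 had the largest log2 difference of all 118 genes. The U11 RNA recognises the 5' splice site of minor introns. Its gene (Entrez ID 353373, row at chr4:132270079-132270186) stood at 6.39 and 2.80 RPKM in the wild-type pair, against 44.2 and 142 RPKM in the null pair, from 7, 3, 45 and 166 reads. Both B7-H4-null libraries lay far above wild type, with replicate 2 the highest. The mean was 20.3-fold higher, with a log2 difference of 3.93 ± 0.574 (SE, adjusted p = 0.108, limma). By reads it was 20.9 times as high, and the exact 95% interval of this ratio, 11.2 to 44.3, covers counting error only. An antisense gene, Gm28872, overlaps Rnu11, and with libraries that do not mark strand their reads cannot be told apart.

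Its partner Rnu12 (Entrez ID 104307, row at chr15:83149645-83149794), the RNA that pairs with the branch site of minor introns, had no read in either wild-type library. In B7-H4-null it had 15 and 7 reads, 10.6 and 4.32 RPKM, so it met the filter only through that genotype, which set its direction. With 3 reads set in place of 0 for the wild-type group, the ratio of reads would be 7.28. This takes the B7-H4-null reads as exact and leaves out the spread between replicates, so it is not a lower limit. The log2 difference of 2.97 ± 0.402 (SE, adjusted p = 0.0859, limma) depends on the added 1 RPKM.

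The 7 proteins of the U11/U12 particle, a list chosen after values were seen, had a median log2 difference of −0.14. Without overlap, 2 were higher (28.6%) and 1 lower (14.3%), where 16.0% and 28.0% of all tested genes were. Pdcd7, a U11-associated protein, was the lower one, at 15.5 and 16.9 RPKM in the wild-type pair, against 10.5 and 10.9 RPKM in the null pair (log2 difference −0.56, adjusted p = 0.415, limma).

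Rnu7, the U7 RNA of histone mRNA processing, had 6.36 and 8.12 RPKM in the wild-type pair, against 10.3 and 13.4 RPKM in the null pair, from 4, 5, 6 and 9 reads. It lies in an exon of Grcc10, which stood at 54.3 and 82.6 against 82.8 and 108.7 RPKM. Rnu2-10, a U2 gene, had 1.05 and 1.61 against 5.11 and 1.98 RPKM, also without overlap, but its highest value came from 9 reads. The U1 genes are near-identical copies whose reads may be divided among them in ways the sources do not state: Rnu1a1 had 3, 1, 4 and 6 reads, Rnu1b2 had 0, 3, 16 and 2, and Rnu1b6 had 0, 1, 0 and 2. Rnu5g, a U5 gene, had 0, 1, 2 and 2 reads, and its locus overlaps Parp16 on the other strand. Rnu5g, like Rnu12, met the filter only through B7-H4-null, which set its direction. At these counts the size of a difference can be read only for Rnu11, and for Rnu12 only against the floor of 3 reads.

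The 5 U3 genes, U8 and U13 act in processing of the ribosomal precursor and were put together after values were seen. None passed the adjusted threshold, and 2 of the 7 met the filter only through B7-H4-null, which set their direction. Each of the 7 was higher without overlap, where 16.0% of all tested genes were, with a median log2 difference of 1.48. Their summed RPM values were 6.31 and 3.62 in wild type and 14.5 and 12.9 in B7-H4-null. These sums include the reads of Rnu3a, which are known only up to a factor.

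Snord13, the U13 RNA that is needed for an acetylation of 18S ribosomal RNA, had 0 and 1.03 RPKM in the wild-type pair, against 9.75 and 13.2 RPKM in the null pair, from 0, 1, 9 and 14 reads. The ratio of reads was 22.8 with a counting interval of 3.71 to 940.2, wide because the wild-type group holds 1 read. Its log2 difference was 3.12 ± 0.389 (SE, adjusted p = 0.0718, limma), the smallest adjusted p among the small RNA genes. Snord13 (Entrez ID 100217422) has no host gene in the annotation.

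Snord118, the U8 RNA, which acts on the 5.8S and 28S side of the precursor, had 3.60 and 3.67 RPKM in the wild-type pair, against 13.9 and 10.1 RPKM in the null pair (log2 difference 1.48 ± 0.266, SE, adjusted p = 0.146, limma). Replicates lay close together and the genotypes apart, from 5, 5, 18 and 15 reads. It has no host gene either, but Tmem107, whose gene ends 133 bases before it on the same strand, stood at 2.88 and 1.43 against 6.04 and 4.90 RPKM.

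Rnu3a, the most read of the U3 genes, had 22.7 and 12.6 RPKM in the wild-type pair, against 32.7 and 38.2 RPKM in the null pair, 2.01-fold higher in means. The other 4 U3 genes lie in introns of Tex14, a gene known from the germ line that was nearly silent here at 0.103 to 0.217 RPKM. Rnu3b1 stood at 2.75 and 0.468 against 14.3 and 4.73 RPKM, and the 3 further copies at 0.924 RPKM or less in wild type except for Rnu3b2 in replicate 1, at 1.38 RPKM. The copies are near-identical, so the division of reads among them is uncertain. All 5 pointed the same way, but copies that may share reads are not separate observations. Of the 5, 2 met the filter only through B7-H4-null, which set their direction.

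**Figure D3:**
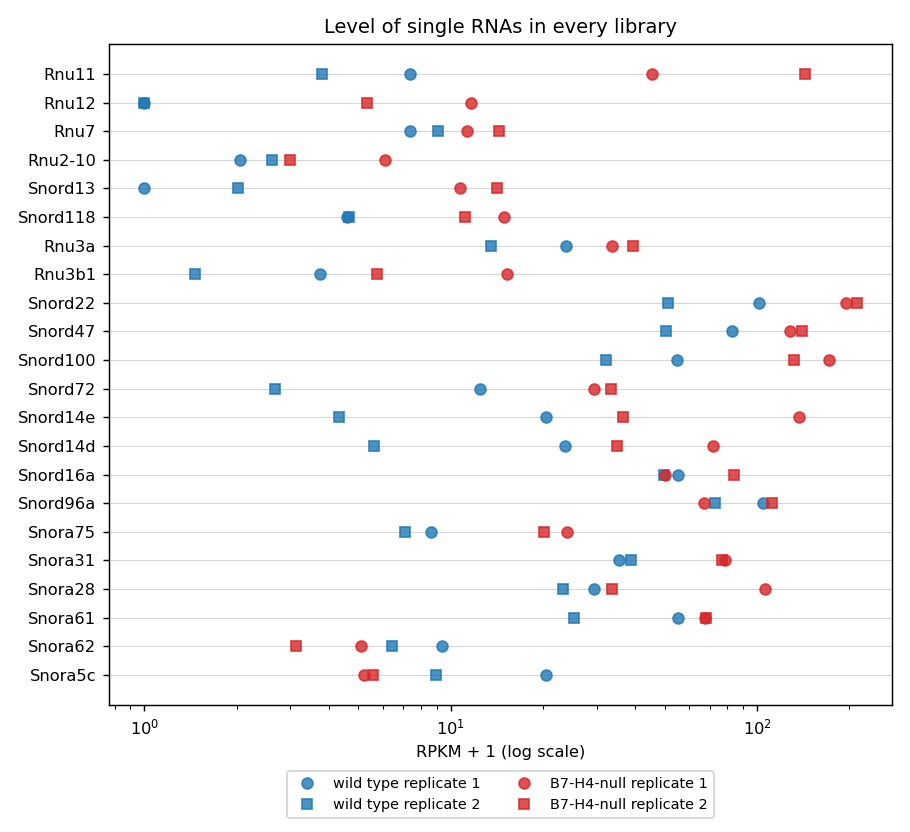
RPKM + 1 (log scale) of single RNAs in each library, circles for replicate 1 and squares for replicate 2, wild type in blue and B7-H4-null in red. Rnu11, Rnu12 and Snord13 show the widest gaps between genotypes, Snord16a and Snord96a have mixed colours, and Snora62 and Snora5c are the 2 rows with wild type on the right.

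Among the other C/D box RNAs, Snord22 was the most read gene of all. The U22 RNA (Entrez ID 100127111, row at chr19:8725866-8725991) lies within an exon of some transcripts of Snhg1, a noncoding host gene, and had 100.1 and 50.3 RPKM in the wild-type pair, against 195 and 211 RPKM in the null pair, from 128, 63, 231 and 287 reads. Both B7-H4-null values lay near each other and above wild type. The mean was 2.69-fold higher (log2 difference 1.5 ± 0.361, SE, adjusted p = 0.24, limma).

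Snord47, a methylation guide within Gas5, had 81.9 and 49.6 RPKM in the wild-type pair, against 127 and 139 RPKM in the null pair, 2.03-fold higher. Snord100, a guide within Rps12, had 53.6 and 31.1 against 170.2 and 131 RPKM, 3.55-fold higher (log2 difference 1.84 ± 0.334, SE, adjusted p = 0.146, limma). Snord72, in an intron of Rpl37, had 11.5 and 1.68 against 28.3 and 32.4 RPKM. In all 3 the genotypes were apart and wild type replicate 2 was the lowest library.

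Snord42a, in an intron of Rpl23a, had only 1 and 1 reads in wild type and 11 and 6 in B7-H4-null, 2.19 and 2.24 against 26.0 and 12.3 RPKM. Its ratio of reads was 8.43 with a counting interval of 2.0 to 75.3. The gene Tlcd1 lies on the opposite strand there.

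The 3 U14 copies in Hspa8, the gene of a constitutive heat shock protein, were Snord14c, Snord14d and Snord14e. Snord14e had 19.5 and 3.32 RPKM in the wild-type pair, against 136 and 35.6 RPKM in the null pair, 7.54-fold higher in means (log2 difference 2.91 ± 0.838, SE, adjusted p = 0.299, limma). Snord14d had 22.7 and 4.63 against 70.8 and 34.0 RPKM, 3.84-fold higher, and Snord14c had 17.0 and 6.94 against 61.0 and 23.4 RPKM, 3.53-fold higher. In each copy the genotypes were apart, and within each genotype replicate 1 was the higher library. U14 acts in 18S processing, and since its copies resemble each other their reads may be shared.

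Not every abundant C/D box RNA was higher. Snord96a, a guide within Rack1, had 104 and 71.9 RPKM in the wild-type pair, against 66.2 and 110.5 RPKM in the null pair. The log2 difference was −0.01, and its sign turned under median-ratio scaling (0.09) and without wild type replicate 1 or B7-H4-null replicate 1. Snord16a, within Rpl4, had 54.2 and 48.7 against 49.0 and 83.3 RPKM. Snord104, which has no host gene, and Snord2, within Eif4a2, were about 2.02 and 2.20 times as high in means, but B7-H4-null replicate 2 lay between the wild-type values: Snord104 had 97.2 and 38.6 against 198 and 77.3 RPKM, and Snord2 had 81.2 and 34.0 against 192 and 61.2 RPKM. These 4 genes overlapped between genotypes.

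Among the H/ACA box RNAs, Snora31 was one of the most regular. This pseudouridylation guide in an intron of Tpt1 had 34.3 and 37.7 RPKM in the wild-type pair, against 77.7 and 76.0 RPKM in the null pair (39, 42, 82 and 92 reads), 2.13-fold higher in means (log2 difference 1.07 ± 0.239, SE, adjusted p = 0.215, limma). Snora75, the U23 RNA within Ncl, the gene of nucleolin, had 7.65 and 6.07 against 22.9 and 19.1 RPKM, 3.06-fold higher (adjusted p = 0.137, limma). Replicates of both RNAs lay close together and the genotypes apart.

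Snora33, in Rps12, had 12.2 and 0 RPKM in the wild-type pair, against 28.3 and 16.7 RPKM in the null pair, so its log2 difference of 2.65 ± 1.06 (SE) rests on the 0 in wild type replicate 2. Snora64 in Rps2 (47.2 and 25.8 against 85.3 and 59.3 RPKM) and Snora70 in Rpl10 (61.9 and 35.9 against 119 and 71.0 RPKM) were 1.98-fold and 1.94-fold higher in means without overlap. Snora28 in Eif5 was as high as 105 RPKM in B7-H4-null replicate 1 but 32.6 RPKM in replicate 2, next to 28.3 and 22.3 RPKM in wild type. In 3 other well-read H/ACA box RNAs the genotypes overlapped, namely Snora24, Snora81 and Snora73b, a U17 RNA of early ribosomal precursor cleavage, at 32.7 and 10.3 RPKM in the wild-type pair, against 44.5 and 23.9 RPKM in the null pair.

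Of the genes with 20 reads or more over the 4 libraries, 46 were higher in B7-H4-null without overlap. Rnu12 is among these 46 and met the filter only through B7-H4-null. Only 2 were lower, where 28.0% of all tested genes were lower and 16.0% higher without overlap. Both were H/ACA box RNAs. Snora5c, in Tbrg4 (Entrez ID 100217467, row at chr11:6620319-6620419), had 19.5 and 7.97 RPKM in the wild-type pair, against 4.20 and 4.58 RPKM in the null pair, from 20, 8, 4 and 5 reads. Its log2 difference was −1.33 ± 0.404 (SE, adjusted p = 0.319, limma), while Tbrg4 itself had 65.9 and 51.8 against 55.4 and 70.5 RPKM. Snora62, in an intron of Rpsa, had 8.34 and 5.42 against 4.08 and 2.13 RPKM. Its log2 difference was −0.96 ± 0.343 (SE, adjusted p = 0.353, limma). Rpsa stood at 86.2 and 108.2 against 113 and 123 RPKM, the other way.

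The Cajal body RNAs were near the limit of detection. Scarna6, in an intron of Atg16l1, had the most reads, 2 and 3 in wild type and 1 and 9 in B7-H4-null. Scarna2, which has no host gene, had 1, 0, 2 and 2 reads and was among the 17 genes that passed when wild type replicate 1 was left out (adjusted p = 0.0495, limma), and Scarna17 had 2 and 1 reads in wild type and none in B7-H4-null. Scarna3a had 1, 2, 0 and 0 reads, Scarna9 had 2, 0, 0 and 0, and Scarna8, Scarna10 and Scarna13 had 3 reads or fewer per library. No gene of this class had more than 9 reads in a library.

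Position was taken from the annotation. Of the 138 genes, 122 lay within 87 host genes on the same strand. In 69 of these the RNA lay in an intron of all transcripts, in 37 it overlapped an exon only of transcripts annotated as retaining an intron or as decay targets, and in 16 it overlapped an exon of another kind. The other 16 had no host. The median log2 difference was 0.78 over 54 tested genes in introns, 0.94 over 37 in retained introns, 1.15 over 14 in exons and 1.13 over 13 without a host. By host type, the 35 genes in ribosomal protein genes (Rack1 included) had a median of 0.96, the 21 tested in noncoding hosts 0.98 and the 49 tested in other protein-coding genes 0.79. Each group lay above the −0.09 of all genes. Of the 13 without a host, 6 were snoRNAs. Among these 13, 2 met the filter only through B7-H4-null and 1 only through wild type. Differences between the groups were not tested. Reads of a host's retained introns or exons can overlap the snoRNA. How the counting assigned such reads is not given, so a value within a host cannot be taken as a measure of the trimmed RNA alone.

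The hosts were set beside their RNAs. No host passed the adjusted threshold (smallest adjusted p = 0.254, limma). Among 96 tested RNAs with a tested host, 57 of the 70 hosts (81.4%) had a log2 difference above 0, where 41.5% of all tested genes did, and the median host stood at 0.39, where the RNAs' own median was 0.88. The RNA exceeded its host in 62 of 96, by a median of 0.29. This order rested on wild type replicate 2: without it the RNA exceeded its host in 37 of 96, with a median of −0.15, while 56 of the 70 hosts were still above 0. Across these 96 genes, which share libraries and in part hosts, Pearson's r between the RNA's and the host's log2 difference was 0.55 and Spearman's rho 0.54. If reads that overlap both were counted for both, the values of RNA and host would share reads. In the 51 RNAs with 10 reads or more in at least 2 libraries, r was 0.43, 37 exceeded their host, and all 37 hosts were above 0.

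**Figure D4:**
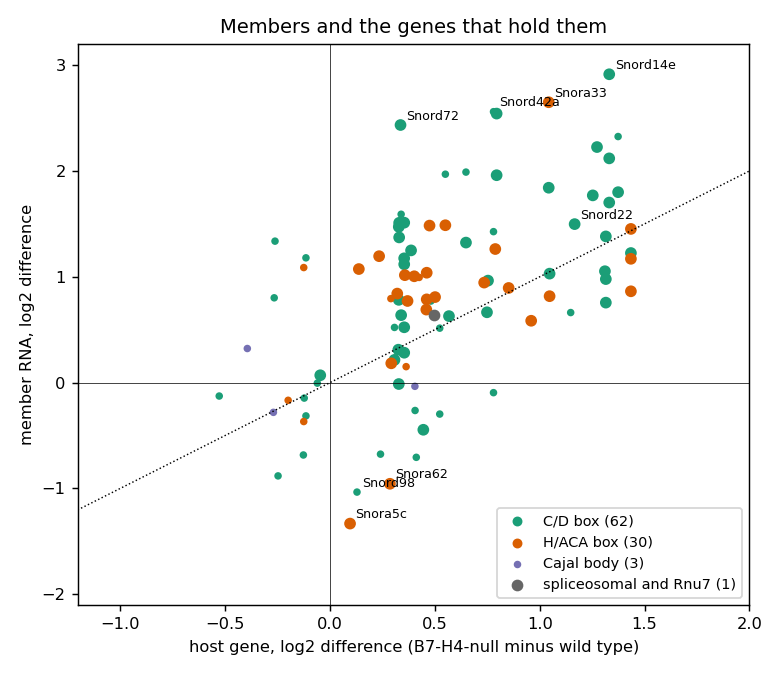
Log2 difference (B7-H4-null minus wild type, log2(RPKM + 1) scale) of 96 RNAs against that of the gene that holds each, coloured by class, with large points for 20 reads or more over the 4 libraries and a dotted line where both are equal. Most points lie to the right of 0, 62 of 96 lie above the dotted line (37 of 96 without wild type replicate 2), and Snora5c and Snora62 lie below 0 beside hosts that are slightly above it.

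Hosts with several RNAs showed how far these went together. In Snhg12, a noncoding host, all 4 RNAs were higher without overlap: Snora61 at 54.1 and 24.4 against 66.8 and 67.1 RPKM, Snord99 at 28.2 and 19.8 against 64.5 and 49.5 RPKM, Snora44 at 11.8 and 6.02 against 21.8 and 19.0 RPKM, and Snora16a at 8.70 and 3.70 against 19.5 and 15.6 RPKM. Snhg12 itself had 80.8 and 48.2 RPKM in the wild-type pair, against 248 and 117 RPKM in the null pair. Each of these RNAs overlaps an exon of Snhg12. All RNAs were higher without overlap also in Hspa8, at 153 and 116 RPKM in the wild-type pair, against 476 and 239 RPKM in the null pair, with its 3 U14 copies in retained introns, and in 2410006H16Rik, with Snord49a, Snord49b and Snord65 in introns.

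Nop56 links this group to the particles the RNAs form, since its product is a core protein of C/D box snoRNPs. It had 86.3 and 35.3 RPKM in the wild-type pair, against 195 and 107.6 RPKM in the null pair (log2 difference 1.37, adjusted p = 0.337, limma). Snord57, within it, had 68.8 and 16.0 against 142 and 99.8 RPKM, and Snord110 had 5.01 and 0 against 9.0 and 14.1 RPKM.

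Other hosts held RNAs that differed from one another. In Rpl13a none of Snord32a, Snord33, Snord34 and Snord35a was free of overlap, with log2 differences of 1.51, 0.28, 0.52 and 1.12. In Rack1, Snord95 stood at 4.35 and 4.44 against 20.3 and 9.52 RPKM beside the overlapping Snord96a, and in Rpl23a, Snord42b stood at 7.17 and 5.49 against 9.65 and 3.36 RPKM beside the higher Snord42a. Differences between RNAs of 1 host were not tested.

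The proteins of these particles, listed by function, had no gene past the adjusted threshold. The 4 core proteins of C/D box snoRNPs had a median log2 difference of 0.44 and the 4 of H/ACA box snoRNPs 0.42, all 8 above 0, with Nop56 and Nop10 free of overlap. These medians rested on B7-H4-null replicate 2, without which they were 0.02 and 0.08, with 4 and 3 genes above 0. Nop10, an H/ACA core protein, had 70.1 and 71.8 RPKM in the wild-type pair, against 77.9 and 131 RPKM in the null pair. Of 11 assembly factors, 10 were above 0 (90.9%, against 41.5% of all tested genes) and 4 were higher without overlap (36.4%, against 16.0%), with a median of 0.35. Without B7-H4-null replicate 2, 6 were above 0 and the median was 0.0087. Znhit6, a C/D box assembly factor, had 6.59 and 6.94 against 8.87 and 12.03 RPKM (adjusted p = 0.467, limma).

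The lists that serve snRNAs had medians nearer to 0. Among all tested genes, 16.0% were higher and 28.0% lower without overlap. The median was −0.03 for 11 genes of the Cajal body and SMN complex (3 higher and 1 lower without overlap), 0.12 for 14 of the Sm and LSm rings (0 and 0), −0.02 for 13 proteins specific to single snRNPs (1 and 0), and 0.0049 for 21 genes of snRNA transcription, 3' end formation and export (3 and 6). The 16 genes of the RNA exosome and of trimming had a median of 0.06 (3 and 3). Without B7-H4-null replicate 2 these 5 medians were −0.17, −0.20, −0.18, −0.07 and −0.09, in the same order. Among the exosome and trimming genes, Tent4b, a noncanonical poly(A) polymerase that acts on snoRNA precursors, had 17.1 and 16.8 RPKM in the wild-type pair, against 9.14 and 12.4 RPKM in the null pair, with a log2 difference of −0.63 ± 0.259 (SE, adjusted p = 0.402, limma).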

How the data were processed

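The authors deposited 1 table of RPKM values, with a row per Entrez gene ID and a column per library, which is a unit taken from the values. The submitters' processing notes name TopHat2 2.0.12 and GRCm38, and the labels' protocols name a TruSeq RNA v2 library. Of the program, annotation and strand setting used for counting, nothing is given in the sources used here. Library totals were recovered from the steps between low values, and 448 of 452 positive values of the small RNA genes were whole numbers of reads within 0.01 read. The other 4 are those of Rnu3a, whose table length is not that of RefSeq, so its reads are known only up to a factor. Symbols, lengths and row coordinates came from RefSeq tables of GRCm38.p6, hosts and sequences from GENCODE on GRCm38.

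Genes were tested with limma 3.58.1 (R 4.3.3) on log2(RPKM + 1), with a pseudocount of 1, a mean-variance trend, genotype as the only term, two-sided, and Benjamini-Hochberg adjustment over 12107 genes at 0.05. For genes at low values this scale shows less than the full change. The test was checked on simulated data. No label says whether the 2 replicates are separate animals, so the spread behind the p-values may be technical.

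The genes and lists were chosen with earlier results of these data known. Named are the 8 genes of each class with the most reads and, per direction, the 8 with the largest log2 difference among those with 20 reads or more and no overlap, then their hosts and up to 3 genes of each list. Further genes, among them Snord118, Snord42a, Snord82, Snora75, Snord14c, Snord57, Snord95, the remaining Rnu3 copies, the RNAs of Snhg12 and of Rpl13a, and Pdcd7, were chosen after their values were seen. Alternatives were a pseudocount of 0.1, other filters, median-ratio scaling, limma's voom on recovered reads, a replicate block and leaving out each library. Some items that the rule names are not reported here.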

Additional observations from a re-analysis of the deposited data

How the results depend on the processing

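Depth limits these results, since 47 of the 138 genes had 10 reads or fewer, and so do single libraries. The number of small RNA genes past the threshold was 0 in the reported fit and between 0 and 17 when each library was left out in turn, and the number of all genes was 12 and between 0 and 56. The counts of all genes were 0 with no filter on low values and 22 with a filter at 10 reads. The labels share replicate numbers but no batch. Deviations from the genotype mean correlated at 0.247 between same-numbered libraries. With 2 libraries per genotype the other numbering gives the same size with opposite sign, so this value cannot show whether same-numbered libraries belong together. A fit with the replicate block called 21 genes, among them 2 small RNA genes, Snord13 (adjusted p = 0.0352, limma) and Snord14e (adjusted p = 0.0287, limma). In each of these settings the cause was not tested.

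The median log2 difference of the tested genes lay between 0.56 and 1.31 when each library was left out, and between 0.86 and 1.06 under the other alternatives. That of the spliceosomal and U7 genes was 2.54 with a pseudocount of 0.1, 2.28 with a filter at 5 RPKM and 3.93 with a filter at 10 reads, where only Rnu11 was left. Of 371 alternative values of the 36 named and tested genes, 348 kept their direction and their side of the threshold, 12 passed it and 11 changed sign. No value that changed sign had passed the test. Under median-ratio scaling Snord96a was 0.088, and with voom Scarna10 was 0.0043. The other changes of sign came from leaving out 1 library, over which the log2 difference ran from −0.38 to 0.35 for Snord96a, from −0.066 to 0.69 for Snord16a, from −0.67 to 0.60 for Scarna10, from −0.48 to 1.13 for Scarna6, from −1.15 to 0.59 for Scarna8, from −0.12 to 1.29 for Snora24 and from −0.00094 to 1.57 for Snora73b. The low ends of Snora24 and Snora73b came without wild type replicate 2, that of Scarna10 without wild type replicate 1, and those of the other 4 without B7-H4-null replicate 2.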

Other observations

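Among the small RNA genes without a host, the protein-coding genes that start or end within 1500 bases did not all stand as the RNAs did. Poldip3, 261 bases from Rnu12 and on the other strand, had 43.2 and 59.4 RPKM in the wild-type libraries, against 37.1 and 39.0 RPKM in the null libraries, where Rnu12 was read only in B7-H4-null. Tti2, 357 bases from Snord13 and on the other strand, had 7.88 and 8.01 against 5.14 and 7.24 RPKM. Gtf3c6, 360 bases from Rnu3a and on the other strand, had 27.4 and 26.7 against 28.8 and 29.6 RPKM. Tmem107, 133 bases from Snord118 on the same strand, was the one of these 4 with a log2 difference above 1, at 1.07 ± 0.316 (SE, adjusted p = 0.307, limma). These pairs were chosen after values were seen, and differences within a pair were not tested.

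Of the 138 genes, 11 have an annotated gene on the opposite strand, Rnu11 and Snord42a among them, and their reads cannot be assigned to a strand.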
